A study of Mus musculus with 12 samples.

Results

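The EGF receptor (ErbB) system was followed at the transcript level in mouse liver through 9 genes chosen by name from the pathway, of 55401 genes in the count table. They were the ligands Hbegf, Areg, Ereg, Tgfa and Btc, the receptors Egfr, Erbb2 and Erbb3, and the feedback inhibitor Errfi1. All 9 were found by symbol and all 9 passed the filter on low counts. Areg passed it through the treated groups alone, since it had 0 counts in all untreated livers.

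Whole-liver RNA was sequenced in 12 libraries, 3 for each of 4 groups. FBXL5ΔDC livers (genotype Cd11c-Cre/Fbxl5F/F) and control livers (genotype FBXL5F/F) were taken 6 h after intraperitoneal acetaminophen, a drug that injures hepatocytes when overdosed, or without treatment (0 h). Both genotypes carried floxed alleles of Fbxl5, which encodes an iron-sensing ubiquitin ligase subunit, and Cre under the Cd11c promoter, active mainly in dendritic cells, was present in FBXL5ΔDC mice and absent from controls. All mice were males of 7 to 10 weeks. The labels gave a 16 h fast before injection and a dose of 300 or 500 mg/kg, without the dose of each mouse, and did not mention fasting for untreated animals. The labels do not say that replicates came from separate litters or cages, so the p-values measure the spread between these samples.

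ErbB ligands are made as membrane-anchored precursors and released by proteases, chiefly ADAM17. A bound receptor pairs with another of the family, its kinase is activated, and the signal passes through RAS and the MAP kinases and through PI3 kinase. In the liver, EGFR is abundant on hepatocytes and is best known for its part in regeneration after injury or resection. ERBB2 has no known ligand of its own, ERBB3 binds neuregulins and has little kinase activity, and ERRFI1 (also called MIG6) binds the EGFR kinase domain and blocks it.

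Library totals ran from 67173096 to 72512319 counts. In a principal component analysis the untreated livers lay between -67.0 and -57.5 on the first axis, FBXL5ΔDC livers at 6 h between 97.7 and 107.4, and control livers at 6 h at -9.46, -8.18 and 86.8. Control replicate 3 at 6 h thus stood apart from the others of its group, and results that rest on it are given with and without it. Mitochondrially encoded transcripts held 8.94% to 9.43% of counts in FBXL5ΔDC livers at 6 h, against 5.32% to 7.05% in the other 3 groups. Fbxl5 was not called between genotypes, at 18.6 ± 5.25 CPM (library-scaled counts) in FBXL5ΔDC and 15.8 ± 3.01 CPM in control livers at 6 h (SD, n = 3 each). Dendritic cell markers were scarce in whole liver, and their 7 transcripts summed to 4.41 to 7.63 CPM across the libraries, so the deletion cannot be checked in whole-liver RNA. Hepatocyte markers were present at 68863 to 135945 CPM.

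On the build GRCm38, the gene positions were as follows. Areg (ENSMUSG00000029378.5, chr5:91139599-91148432, plus strand), Ereg (ENSMUSG00000029377.5, chr5:91074622-91093646, plus strand) and Btc (ENSMUSG00000082361.6, chr5:91357261-91402994, minus strand) are neighbours within 328373 bases that hold no other protein-coding gene. Tgfa (ENSMUSG00000029999.14) is at chr6:86195223-86275719 on the plus strand. Egfr (ENSMUSG00000020122.16, chr11:16752203-16918158) and Erbb2 (ENSMUSG00000062312.5, chr11:98412470-98437716) are both on the plus strand of chromosome 11. Erbb3 (ENSMUSG00000018166.8) is at chr10:128567523-128589652 on the minus strand and Errfi1 (ENSMUSG00000028967.10) at chr4:150853919-150868892 on the plus strand. Exons of Ereg, Tgfa and Erbb2 share 141, 118 and 9 bases with exons of Gm19610, Gm43917 and Mien1 on the opposite strand. How strand was handled in counting is not given in the sources used here, but Gm19610 had 0 CPM in every group and Gm43917 at most 0.052 CPM. Mien1 averaged 23.1 to 25.8 CPM over the 4 groups, and its part in the low Erbb2 counts was not tested.

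The promoters of 3 of these genes are printed because they set side by side a ligand that was absent before treatment, its chromosomal neighbour and the feedback inhibitor. Each is the 250 bases before a RefSeq start on GRCm38.p6, 5′ to 3′ on the gene's strand, with any match to the cAMP response element (CRE) TGACGTCA in capitals. They are chr5:91139349-91139598 (plus strand) for Areg, chr5:91402995-91403244 (minus strand) for Btc and chr4:150854820-150855069 (plus strand), upstream of one of the starts, for Errfi1.
Areg: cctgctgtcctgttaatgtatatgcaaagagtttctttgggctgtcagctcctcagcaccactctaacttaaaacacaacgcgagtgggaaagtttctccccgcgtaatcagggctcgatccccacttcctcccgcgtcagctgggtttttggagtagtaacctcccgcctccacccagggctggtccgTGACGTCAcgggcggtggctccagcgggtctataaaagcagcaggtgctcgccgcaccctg
Btc: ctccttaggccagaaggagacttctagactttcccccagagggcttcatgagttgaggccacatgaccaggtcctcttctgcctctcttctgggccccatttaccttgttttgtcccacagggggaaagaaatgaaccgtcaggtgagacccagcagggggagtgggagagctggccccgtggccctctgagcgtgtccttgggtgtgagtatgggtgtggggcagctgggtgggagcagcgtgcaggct
Errfi1: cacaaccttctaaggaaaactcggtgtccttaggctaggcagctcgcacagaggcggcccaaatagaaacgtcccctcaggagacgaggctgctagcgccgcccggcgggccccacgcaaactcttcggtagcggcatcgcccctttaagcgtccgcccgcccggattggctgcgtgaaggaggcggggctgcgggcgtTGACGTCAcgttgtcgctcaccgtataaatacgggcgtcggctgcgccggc

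The CRE stood 61 to 54 bases before the start of Areg and 51 to 44 bases before this start of Errfi1. Both strands were searched for it, for the AP-1 motif TGANTCA and for the antioxidant response element TGACNNNGC. A CRE was present in 508 of 32851 RefSeq promoters (1.55%), the AP-1 motif in 6.75% and the antioxidant element in 10.2%. None of the 3 motifs was found in these windows of Tgfa, Btc, Egfr, Erbb2 or the other start of Errfi1. Ereg, Erbb3 and Hbegf had no promoter examined. A match describes letters in a window and not binding.

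After acetaminophen, 4 ligand transcripts rose in FBXL5ΔDC livers and 2 of them, Areg and Btc, also rose in control livers. Tgfa, the main ligand transcript of the untreated liver, did not pass the test in either genotype. Erbb3 fell in both genotypes, while Egfr, Erbb2 and Errfi1 were not called. In the edgeR quasi-likelihood test at a Benjamini-Hochberg adjusted p below 0.05 over 17585 genes, 4 of the 9 were called higher and 1 lower in FBXL5ΔDC livers at 6 h against 0 h. Across all genes 15.0% were called higher and 15.1% lower. In control livers 2 of the 9 were called higher and 1 lower, against 6.36% of all genes higher and 4.20% lower. The median log2 change of the 9 was 0.68 in FBXL5ΔDC and 0.66 in control livers, beside 0.02 and 0.03 over all tested genes. With so few genes these medians are the values of single uncalled genes, Erbb2 in FBXL5ΔDC and Egfr in control livers. The 2 responses use separate 0 h groups, but all contrasts share one estimate of the spread.

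Hbegf (ENSMUSG00000024486.6) encodes heparin-binding EGF-like growth factor, which binds EGFR and ERBB4 and whose precursor is also the diphtheria toxin receptor. It was measured at 25.8, 107.5 and 21.9 CPM in the FBXL5ΔDC livers at 6 h, against 0.443, 0.323 and 0.521 CPM in those at 0 h. Every treated FBXL5ΔDC liver was above every untreated one, and replicate 2 was far above the other two. The log2 change was 6.91 ± 1.07 (SE, edgeR adjusted p = 0.00131), and 5.79 ± 0.870 (adjusted p = 0.00204) without that replicate. In control livers Hbegf was at 1.44, 1.08 and 7.82 CPM at 6 h, against 0.809, 0.246 and 0.792 CPM at 0 h. The control groups did not overlap either, but most of the difference lay in replicate 3. The log2 change of 2.47 ± 0.91 did not pass the test (edgeR adjusted p = 0.119, 95% interval 0.45 to 4.50) and was 1.03 ± 0.81 without replicate 3. DESeq2 called it at an adjusted p of 0.0416 with all libraries.

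Areg encodes amphiregulin, a low-affinity EGFR ligand made by epithelial and immune cells in tissue repair. Its levels were 0.983, 3.45 and 1.21 CPM in FBXL5ΔDC livers and 1.33, 0.902 and 7.01 CPM in control livers at 6 h, against 0 counts in all 6 untreated livers. As for Hbegf, FBXL5ΔDC replicate 2 and control replicate 3 were the high libraries. A group mean under 12 counts per library was treated as below a floor, which is 0.176 CPM in FBXL5ΔDC and 0.161 CPM in control livers at 0 h. Against that floor Areg was at least 10.7-fold higher at 6 h in FBXL5ΔDC livers and at least 19.1-fold higher in control livers (edgeR adjusted p = 0.003 and 0.00662). Without the high library of each group these bounds were 6.24-fold and 6.91-fold. Having passed the filter through the treated groups alone, Areg could hardly have been tested without such a difference.

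Ereg, the neighbour of Areg on chromosome 5, encodes epiregulin, a ligand of EGFR and ERBB4. Its levels were 2.27, 0.771 and 2.49 CPM in FBXL5ΔDC livers at 6 h, against 0, 0.220 and 0.119 CPM at 0 h, with no overlap. The 0 h mean lay under the floor, and the rise was at least 10.5-fold (edgeR adjusted p = 0.0109). Replicate 2, the highest for Hbegf and Areg, was the lowest of its group for Ereg. In control livers Ereg had 0.387, 0.321 and 1.60 CPM at 6 h, against 0.133, 0.341 and 0.430 CPM at 0 h. These groups overlapped, and the log2 change of 1.34 ± 0.92 was not called (edgeR adjusted p = 0.418, 95% interval -0.65 to 3.33). It was 0.23 without control replicate 3 at 6 h.

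Btc encodes betacellulin, which binds EGFR and ERBB4, and showed the most even rise among the ligands in FBXL5ΔDC livers. It had 15.9, 11.9 and 13.2 CPM at 6 h in those livers, against 1.24, 1.47 and 1.34 CPM at 0 h, a log2 change of 3.34 ± 0.41 (edgeR adjusted p = 0.000177). Control livers had 9.57, 7.69 and 24.05 CPM at 6 h, against 1.09, 0.778 and 1.54 CPM at 0 h, a log2 change of 3.60 ± 0.41 (adjusted p = 0.000315). Neither pair of groups overlapped. Without control replicate 3, the high one at 6 h, the control change was 2.92 ± 0.268 (adjusted p = 3.01e-05).

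Tgfa encodes transforming growth factor alpha, an EGFR ligand that hepatocytes make themselves. Its levels were 18.7, 13.96 and 22.0 CPM in FBXL5ΔDC livers at 6 h, against 29.7, 27.04 and 27.7 CPM at 0 h. All 3 treated livers were below all 3 untreated ones, yet the log2 change of -0.63 ± 0.24 missed the threshold (edgeR adjusted p = 0.071, 95% interval -1.16 to -0.10). It passed without control replicate 1 at 6 h (adjusted p = 0.0121), without control replicate 3 at 6 h (0.0427) and with only the FBXL5ΔDC groups in the fit (0.0171), where the estimate of the spread differs and the log2 change hardly moves. Control livers had 40.9, 20.5 and 21.2 CPM at 6 h, against 24.3, 29.6 and 25.3 CPM at 0 h, and their ranges overlapped. The control log2 change was 0.06 ± 0.24 (adjusted p = 0.923) and became -0.34 without replicate 1, the high library.

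**Figure D1:**
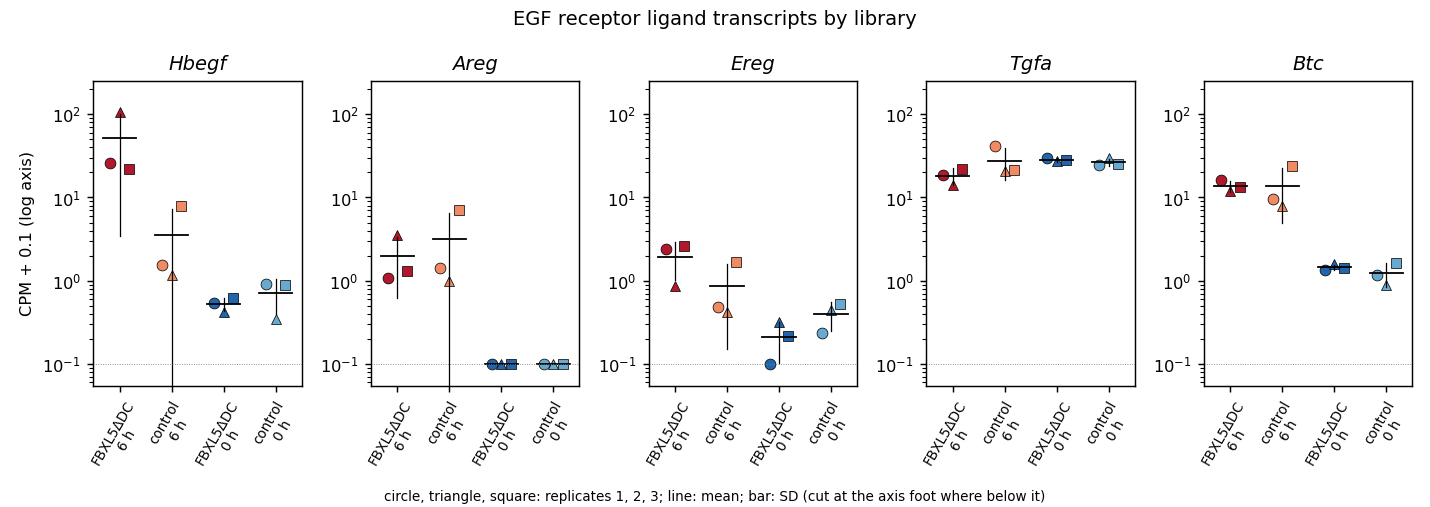
CPM plus 0.1 on a log axis for the 5 ligand transcripts in each of the 12 libraries, with the mean (line) and SD (bar) of each group of 3 and the dotted line at 0 CPM. Hbegf, Areg, Ereg and Btc in FBXL5ΔDC livers at 6 h all stand above the 0 h livers of that genotype, and control replicate 3 at 6 h (square) is the highest control liver for these 4 ligands.

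The ligand transcripts were set on a common scale as CPM per kilobase of exon (RPKM). Their sum was 18.5 ± 9.99 RPKM in FBXL5ΔDC and 10.7 ± 5.27 RPKM in control livers at 6 h, against 4.75 ± 0.172 RPKM in FBXL5ΔDC and 4.52 ± 0.339 RPKM in control livers at 0 h (SD, n = 3 each). At 0 h Tgfa held 91.2 ± 1.19% of the sum in FBXL5ΔDC livers and 89.9 ± 3.64% in control livers. At 6 h Hbegf held the largest share in each FBXL5ΔDC liver, from 36.4% to 74.0%, and Tgfa held 7.16% to 27.3%. Tgfa was still the largest share in control replicates 1 and 2 at 6 h, at 63.6% and 53.6%. In control replicate 3 it was 19.9%, below Areg at 35.3% and Btc at 32.5%, and Hbegf was 9.90%. Hbegf thus held at least 36.4% of ligand transcript in the treated FBXL5ΔDC livers and at most 9.90% in the treated control livers. These shares are descriptions of 3 libraries a group and were given no test.

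**Figure D2:**
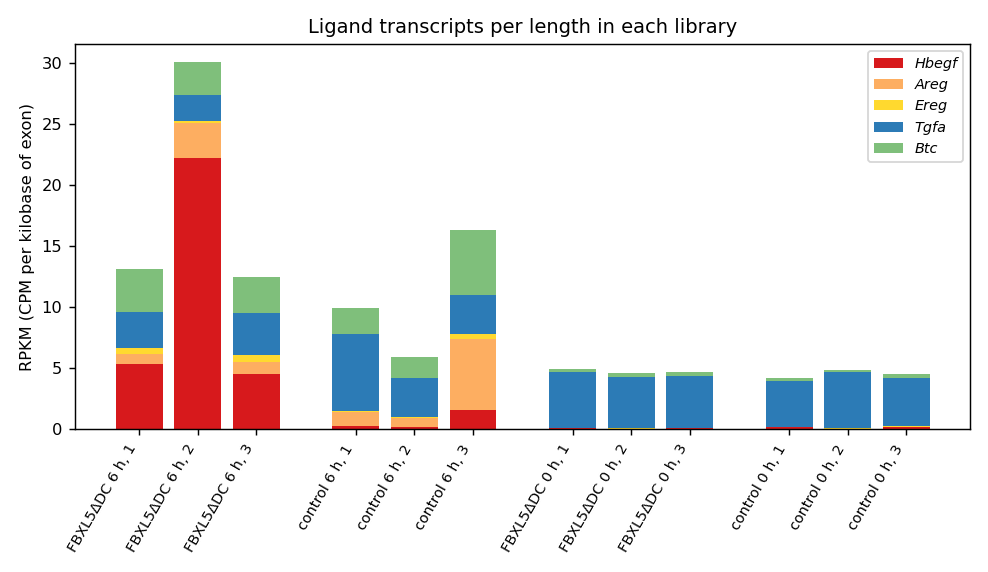
Stacked bars give the RPKM of each ligand transcript in each of the 12 libraries, on an axis starting at 0. Tgfa fills nearly the whole bar at 0 h, Hbegf is the largest segment in the 3 FBXL5ΔDC livers at 6 h, and Areg and Btc are the largest in control replicate 3 at 6 h.

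Egfr, the receptor that all 5 ligands bind, had 359, 357 and 428 CPM in FBXL5ΔDC livers at 6 h, against 264, 484 and 425 CPM at 0 h. The ranges overlapped, and the log2 change was -0.04 ± 0.20 (edgeR adjusted p = 0.919, 95% interval -0.47 to 0.40). In control livers Egfr had 385, 536 and 382 CPM at 6 h, against 288, 253 and 286 CPM at 0 h, with every treated liver above every untreated one. That log2 change of 0.66 ± 0.20 lay just outside the threshold (adjusted p = 0.0578, 95% interval 0.22 to 1.10). It passed in DESeq2 (adjusted p = 0.0278), without control replicate 3 at 6 h (0.0458) and without FBXL5ΔDC replicate 1 at 0 h (0.0264).

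Erbb3 encodes the neuregulin receptor that signals through PI3 kinase when paired with ERBB2 or EGFR. Its levels were 13.2, 16.04 and 11.4 CPM in FBXL5ΔDC livers at 6 h, against 137.1, 120.6 and 102.2 CPM at 0 h. The fall of 3.14 ± 0.35 on the log2 scale had an edgeR adjusted p of 0.000164. In control livers Erbb3 had 56.6, 25.97 and 19.9 CPM at 6 h, against 137.6, 90.6 and 96.6 CPM at 0 h, a log2 change of -1.66 ± 0.33 (adjusted p = 0.0103). Neither pair of groups overlapped, and control replicate 1 was the least lowered of the 6 treated livers. Without it the control log2 change was -2.24 ± 0.233, and without replicate 3 at 6 h it was -1.39 ± 0.320 (adjusted p = 0.0239). With only the control groups in the fit it was lost (adjusted p = 0.0695).

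Erbb2, which encodes the ligandless partner of the other receptors, was low but over the floor, with group means of 0.531 to 1.27 CPM. It had 0.553, 2.28 and 0.969 CPM in FBXL5ΔDC livers at 6 h, against 0.6001, 1.205 and 0.566 CPM at 0 h. Control livers had 0.400, 0.668 and 0.903 CPM at 6 h, against 0.146, 0.696 and 0.752 CPM at 0 h. All groups overlapped, and the log2 changes of 0.68 ± 0.67 in FBXL5ΔDC and 0.30 ± 0.67 in control livers were not called (edgeR adjusted p = 0.489 and 0.851). The 95% interval in FBXL5ΔDC livers, -0.77 to 2.12, leaves room for a change either way.

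Errfi1 had the highest level of the 9 in every group per kilobase of exon. FBXL5ΔDC livers had 1440.02, 1589 and 1614 CPM at 6 h, against 1447, 1538 and 1435 CPM at 0 h. Control livers had 1169, 1098 and 1989 CPM at 6 h, against 1064, 1464 and 1319 CPM at 0 h. The ranges overlapped in both genotypes, with control replicate 3 at 6 h the highest of the 12 libraries. Log2 changes were 0.07 ± 0.20 in FBXL5ΔDC livers (edgeR adjusted p = 0.834, 95% interval -0.36 to 0.51) and 0.15 ± 0.20 in control livers (adjusted p = 0.737, 95% interval -0.29 to 0.58). The control value became -0.18 without replicate 3.

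**Figure D3:**
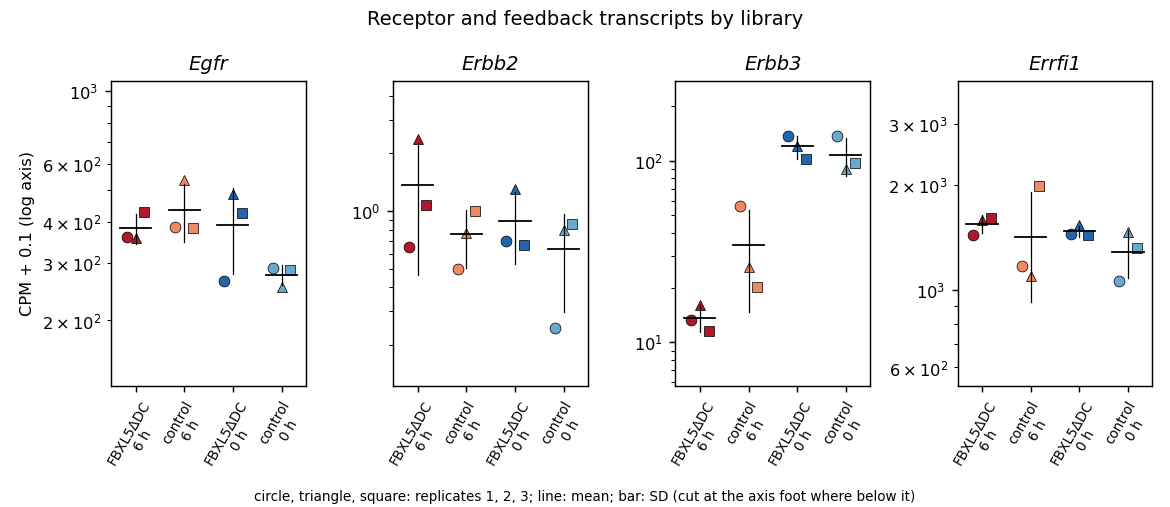
CPM plus 0.1 on log axes, each with its own range, for Egfr, Erbb2, Erbb3 and Errfi1 in each library, with the mean (line) and SD (bar) of each group of 3. Erbb3 at 6 h lies below 0 h in both genotypes, with all 3 FBXL5ΔDC livers (11.4 to 16.04 CPM) under the 3 control livers (19.9 to 56.6 CPM).

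Per kilobase of exon, the order of levels at 0 h was Errfi1, Egfr, Erbb3, Tgfa and Btc in both genotypes. In FBXL5ΔDC livers these averaged 411, 34.5, 19.9, 4.34 and 0.299 RPKM, and neighbours in that order did not overlap. In control livers at 0 h they averaged 358, 24.3, 17.99, 4.07 and 0.251 RPKM, and there Egfr and Erbb3 overlapped. Hbegf, Erbb2 and Ereg followed, at no more than 0.152 RPKM on average in either genotype, with Hbegf overlapping Erbb2 in control livers. In FBXL5ΔDC livers at 6 h Errfi1 (432 RPKM) and Egfr (33.7 RPKM) were followed by Hbegf at 10.7 ± 10.0 RPKM. Btc (3.03 RPKM), Tgfa (2.81), Erbb3 (2.25) and Areg (1.55) came next, each overlapping its neighbour, and Ereg (0.447) and Erbb2 (0.243) were last. In control livers at 6 h every neighbour from Erbb3 (5.68 RPKM) through Tgfa (4.24), Btc (3.05), Areg (2.54), Hbegf (0.713) and Ereg (0.186) to Erbb2 (0.126) overlapped the next. Hbegf ranked 3 of 9 in treated FBXL5ΔDC livers and 7 of 9 in treated control livers.

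Between genotypes at 6 h, Hbegf was higher and Erbb3 lower in FBXL5ΔDC than in control livers, so that 1 of the 9 was called higher and 1 lower. Across all genes 1.35% were called higher and 4.51% lower. Hbegf averaged 51.7 ± 48.4 CPM in FBXL5ΔDC and 3.45 ± 3.79 CPM in control livers, with no overlap (log2 change 3.91 ± 0.90, edgeR adjusted p = 0.0359). Erbb3 averaged 13.6 ± 2.33 CPM in FBXL5ΔDC and 34.2 ± 19.7 CPM in control livers, again with no overlap (log2 change -1.33 ± 0.33, adjusted p = 0.039). Both calls lay close to the threshold. Of the 12 fits that each left out 1 library, Hbegf passed in 2, without control replicate 3 at 6 h (log2 change 5.36, adjusted p = 0.00372) and without FBXL5ΔDC replicate 3 at 6 h (4.27, adjusted p = 0.0454). Leaving out any other library gave an adjusted p of 0.0504 to 0.146 for Hbegf. Without FBXL5ΔDC replicate 2 at 6 h its log2 change was 2.79 (adjusted p = 0.0954). Erbb3 passed without control replicate 3 at 6 h (-1.61, adjusted p = 0.00378) and without control replicate 1 at 0 h (-1.33, adjusted p = 0.0465), and otherwise had an adjusted p of 0.0579 to 0.12. Without control replicate 1 at 6 h the Erbb3 change was -0.76 (adjusted p = 0.108). With only the treated groups in the fit neither was called (adjusted p = 0.167 for Hbegf and 0.18 for Erbb3).

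The other 7 genes were not called between genotypes at 6 h. Btc averaged 13.7 ± 2.05 CPM in FBXL5ΔDC and 13.8 ± 8.95 CPM in control livers, a log2 change of -0.01 ± 0.37 (edgeR adjusted p = 0.995, 95% interval -0.80 to 0.79). Areg averaged 1.88 ± 1.36 CPM in FBXL5ΔDC and 3.08 ± 3.41 CPM in control livers (log2 change -0.71 ± 0.84, adjusted p = 0.681), and without control replicate 3 the log2 change was 0.75. Ereg averaged 1.84 ± 0.936 CPM in FBXL5ΔDC and 0.768 ± 0.717 CPM in control livers (log2 change 1.27 ± 0.90, adjusted p = 0.443). Tgfa averaged 18.2 ± 4.04 CPM in FBXL5ΔDC and 27.5 ± 11.6 CPM in control livers (log2 change -0.60 ± 0.24, adjusted p = 0.166). For Egfr and Errfi1 the 95% intervals of the log2 difference ran from -0.63 to 0.25 and from -0.31 to 0.56. Without control replicate 3 at 6 h 4 of the 9 were called, with Errfi1 higher (log2 change 0.45, adjusted p = 0.0367) and Tgfa lower (-0.75, adjusted p = 0.0401) beside Hbegf and Erbb3. Calls over all genes rose in that fit too, to 1873 higher and 2376 lower of 18464, against 238 and 793 of 17585 with all libraries.

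In untreated livers none of the 9 was called between genotypes by edgeR or by DESeq2, and edgeR called 0% of all genes. At an unadjusted p below 0.05, 1 of the 8 genes with counts at 0 h passed, Egfr, which averaged 391 ± 113.7 CPM in FBXL5ΔDC and 276 ± 19.5 CPM in control livers at 0 h (log2 change 0.50 ± 0.20, unadjusted p = 0.0279). Its groups overlapped, with FBXL5ΔDC replicate 1 (264 CPM) inside the control range. Over all genes 465 passed that unadjusted threshold.

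Whether the response to acetaminophen differed between genotypes was tested as an interaction, which called none of the 9 and 0.290% of all genes. The difference between responses (FBXL5ΔDC minus control, log2) was 4.43 ± 1.30 for Hbegf (edgeR adjusted p = 0.166), -1.48 ± 0.46 for Erbb3 (0.176) and -0.69 ± 0.29 for Egfr (0.299). These 3 had an unadjusted p below 0.05, as did 2543 of all 17585 genes. DESeq2 called 2 of the 3, Hbegf (adjusted p = 0.0227) and Erbb3 (0.0446). Without control replicate 3 at 6 h edgeR also called Hbegf (5.88, adjusted p = 0.0134) and Erbb3 (-1.76, adjusted p = 0.0187). Over all genes that fit called 1103 higher and 1430 lower of 18464 for the interaction. For Btc the interaction was -0.26 (adjusted p = 0.875) and for Errfi1 -0.07 (adjusted p = 0.942). Areg, at 0 counts in both untreated groups, has no fold to compare between genotypes there.

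**Figure D4:**
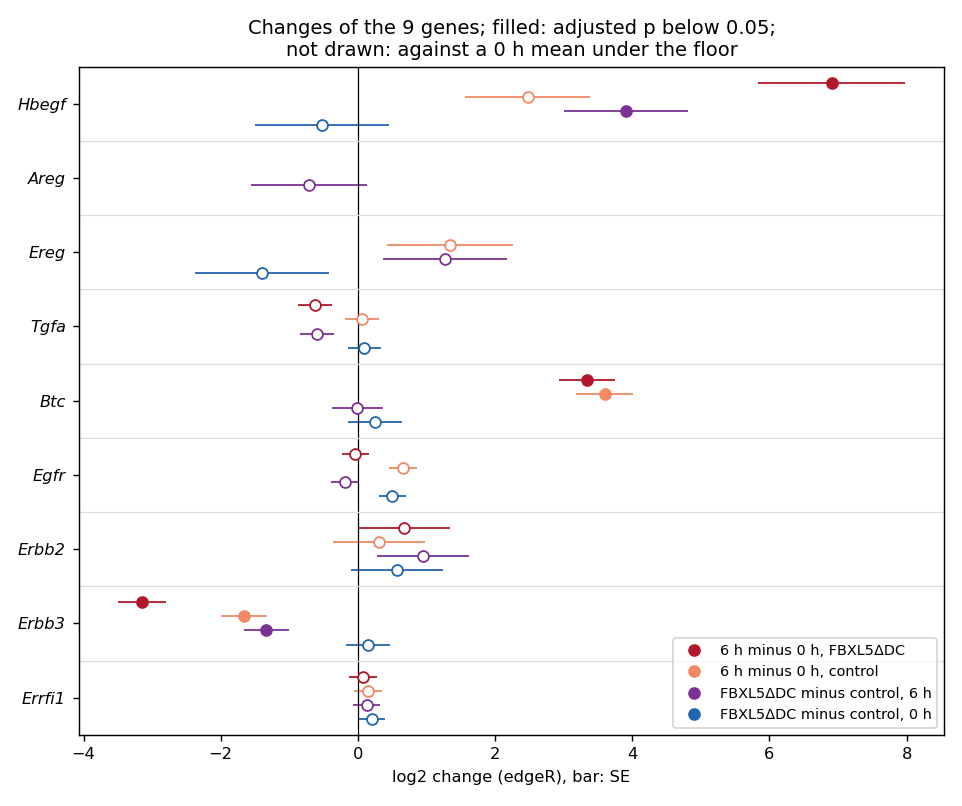
Log2 change from edgeR with its SE for the 9 genes in 4 comparisons, with filled points at an adjusted p below 0.05 and changes against a 0 h mean under the floor left out (Areg in both genotypes and Ereg in FBXL5ΔDC). Filled points away from 0 mark Hbegf, Btc and Erbb3, while those of Egfr, Erbb2, Tgfa and Errfi1 are open.

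The rest of the ErbB pathway was described through 4 lists of genes, whose counts are to be read beside the shares of all genes called at 6 h, 15.0% higher and 15.1% lower in FBXL5ΔDC and 6.36% higher and 4.20% lower in control livers. Of the 7 other ErbB ligands and receptor, Epgn, Nrg2 and Nrg3 were too low to test. In both genotypes 2 of the 4 tested were called higher at 6 h and 0 lower (median log2 change 1.95 in FBXL5ΔDC and 1.51 in control livers). Those were Nrg1 and Nrg4, neuregulins that bind ERBB3 and ERBB4 (Nrg1) or ERBB4 (Nrg4). Nrg1 had 13.99, 9.86 and 17.6 CPM in FBXL5ΔDC livers at 6 h, against 0, 0.500 and 0.0447 CPM at 0 h (log2 change 6.24 ± 1.38, edgeR adjusted p = 0.00724). That 0 h mean is over the floor through replicate 2 alone, and the log2 change ran from 5.65 to 9.19 over the 12 fits that left out 1 library, highest without that replicate. In control livers Nrg1 had 1.37, 3.56 and 15.3 CPM at 6 h, against 0, 0.0546 and 0.255 CPM at 0 h, where the mean was under the floor, and was at least 41.8-fold higher (adjusted p = 0.025). Replicate 3 was again the high control liver, and the treated and untreated livers did not overlap in either genotype. Nrg1 was so low in untreated livers that in the fit to all libraries it passed the filter on low counts through the treated livers. Being tested there thus already depended on its treated levels, much as for Areg. Nrg4 averaged 23.8 ± 4.53 CPM at 6 h and 4.60 ± 2.17 CPM at 0 h in FBXL5ΔDC livers (adjusted p = 0.0193), and 26.3 ± 22.9 CPM at 6 h and 4.69 ± 3.04 CPM at 0 h in control livers (adjusted p = 0.0375). Without control replicate 3 at 6 h neither was called in control livers (adjusted p = 0.0638 for Nrg1 and 0.123 for Nrg4), and Nrg1 stood at 15.3 times the floor. Of those 12 fits, Nrg1 was called in 12 in FBXL5ΔDC and 9 in control livers, and Nrg4 in 9 in FBXL5ΔDC and 4 in control livers.

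Of 11 genes of ligand shedding, 4 were called higher and 0 lower at 6 h in FBXL5ΔDC livers (median log2 change 0.30), and 0 of the 11 in control livers (median 0.27). In control livers 4 of the 11 had an unadjusted p below 0.05, beside 4346 of all 17585 genes. DESeq2 called 2 higher there, beside 1680 of all genes. Rhbdf2 and Rhbdf1 encode inactive rhomboids that escort ADAM17 to the cell surface, Adam15 a related metalloprotease, and Timp3 an inhibitor of ADAM17. Rhbdf2 averaged 48.8 ± 8.65 CPM at 6 h and 10.5 ± 1.88 CPM at 0 h in FBXL5ΔDC livers (log2 change 2.21 ± 0.44, edgeR adjusted p = 0.0035). Timp3 averaged 75.5 ± 3.33 CPM at 6 h and 11.6 ± 4.89 CPM at 0 h (2.70 ± 0.57, adjusted p = 0.00533). Rhbdf1 and Adam15 rose by 1.62 and 1.58 on the log2 scale (adjusted p = 0.0087 and 0.00642). In control livers the log2 changes of Rhbdf2, Timp3, Rhbdf1 and Adam15 were 1.39, 1.66, 0.97 and 0.998 with adjusted p from 0.0615 to 0.14. They were 0.49, 0.55, 0.19 and 0.66 without control replicate 3 at 6 h.

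Of 20 adaptors and kinases, 3 were called higher and 2 lower in FBXL5ΔDC livers (median log2 change 0.07), and 4 higher and 2 lower in control livers (median 0.20). The FBXL5ΔDC counts are no larger a share than that of all genes. Sos1, an exchange factor that loads RAS with GTP, fell to 18.1 ± 2.37 CPM at 6 h in FBXL5ΔDC livers, against 48.1 ± 4.21 CPM at 0 h (log2 change -1.41 ± 0.16, edgeR adjusted p = 0.000126). In control livers Sos1 averaged 28.6 ± 5.10 CPM at 6 h and 43.3 ± 5.50 CPM at 0 h (-0.60, adjusted p = 0.0315), and it was lower in FBXL5ΔDC than in control livers at 6 h (-0.66, adjusted p = 0.0328). With a library left out, the Sos1 fall was called in 12 of 12 fits in FBXL5ΔDC livers, 7 in control livers and 4 between genotypes at 6 h. Its paralogue Sos2 rose in FBXL5ΔDC livers (log2 change 0.96, adjusted p = 0.00955), as did the RAS gene Nras (1.04, adjusted p = 0.00167). Plcg1, a phospholipase bound by active EGFR, fell by 0.62 on the log2 scale (adjusted p = 0.0295), a call kept in 7 of 12 such fits. The control counts of this list ran from 0 to 5 higher and 0 to 2 lower over those fits.

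Of 17 negative regulators 16 were in the table and tested. In FBXL5ΔDC livers 7 were called higher and 1 lower (median log2 change 0.93), and in control livers 1 was called higher and 0 lower (median 0.51), a control count near the share of all genes. Without FBXL5ΔDC replicate 3 at 0 h the FBXL5ΔDC counts were 4 and 0, and the control count of 1 higher was 0 without control replicate 3 at 6 h. The 4 called genes with the largest changes were Spry2, Spred1, Spry1 and Spry4, whose products restrain RAS and RAF signalling. Spred1 averaged 84.1 ± 7.07 CPM at 6 h and 14.8 ± 2.25 CPM at 0 h in FBXL5ΔDC livers (log2 change 2.50 ± 0.45, edgeR adjusted p = 0.00214). Spry4 averaged 14.2 ± 1.95 CPM at 6 h and 3.79 ± 0.390 CPM at 0 h (1.91 ± 0.29, adjusted p = 0.000626). Spry2 and Spry1 rose by 2.66 and 2.04 on the log2 scale (adjusted p = 0.00587 and 0.0152). Spry2 was low, at 2.76 ± 0.481 CPM at 6 h and 0.436 ± 0.289 CPM at 0 h. With a library left out, its call was kept in 12 of 12 fits and that of Spry1 in 9. In control livers the log2 changes were 0.97 for Spred1, 0.88 for Spry4, 1.23 for Spry2 and 0.57 for Spry1, with adjusted p from 0.0672 to 0.579. Without control replicate 3 at 6 h they were 0.19 for Spred1, 0.48 for Spry4, 0.75 for Spry2 and -0.55 for Spry1, which turned sign.

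In the comparison between genotypes at 6 h, the counts of these lists depended on control replicate 3. With all libraries edgeR called 0 of the 16 negative regulators, while 4 had an unadjusted p below 0.05 and DESeq2 called 1. It called 0 of the 11 shedding genes, of which 2 had an unadjusted p below 0.05 and DESeq2 called 0. Of all 17585 genes 3998 had an unadjusted p below 0.05 in this comparison. Without control replicate 3 the calls over all genes rose to 1873 higher and 2376 lower of 18464. In the same fit 8 negative regulators were called higher and 1 lower in FBXL5ΔDC livers, and 6 shedding genes higher. Among them were Spred1 (log2 change 2.12, adjusted p = 0.000243), Spry1 (1.93, adjusted p = 0.00148), Timp3 (2.26, adjusted p = 0.000209) and Rhbdf2 (1.71, adjusted p = 2.86e-05). The interaction then called 5 negative regulators and 4 shedding genes, all higher, beside 1103 genes higher and 1430 lower of all 18464. With all libraries it called 0 of either list and DESeq2 called 0. There 4 and 0 had an unadjusted p below 0.05, beside 2543 of all 17585 genes.

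**Figure D5:**
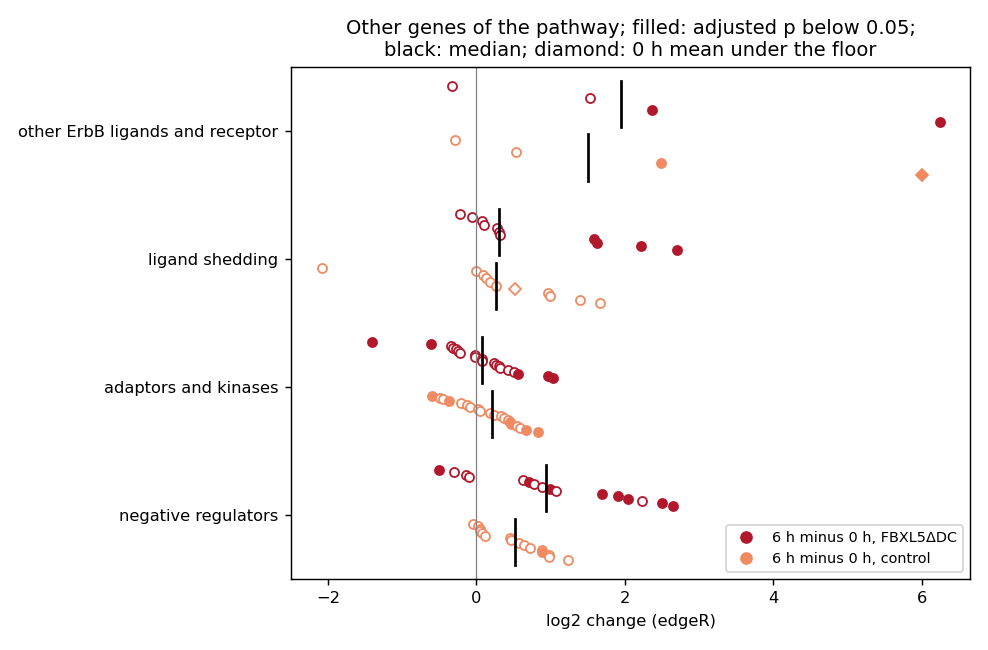
Each point is the edgeR log2 change at 6 h against 0 h of 1 gene of the 4 lists, in FBXL5ΔDC and in control livers. The black line is at the list's median, and a diamond marks a 0 h mean under the floor with a 6 h mean over it. Adam12 in control livers, under the floor at both times, is drawn as a circle. The negative regulators lie mostly right of 0 in FBXL5ΔDC livers (median 0.93), and Nrg1 is the point farthest right in both genotypes.

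Markers of several cell types moved with the ligands, and in whole liver more cells of a type cannot be told apart from more RNA per cell. The summed level of 7 biliary markers was 141, 270.0 and 78.9 CPM in FBXL5ΔDC livers at 6 h, against 33.3 to 39.4 CPM at 0 h, and 36.6, 33.8 and 88.5 CPM in control livers at 6 h, against 27.5 to 35.4 CPM at 0 h. The libraries highest in Hbegf and Areg, FBXL5ΔDC replicate 2 and control replicate 3, were also the highest of their groups for biliary markers. The same libraries were the highest of their groups for hepatocyte markers too (135945 and 113538 CPM), a sum made up mostly of Alb. In that list Cyp2e1 averaged 843 CPM at 6 h in FBXL5ΔDC livers, against 9097 CPM at 0 h. For neutrophil markers these libraries were the highest by little. FBXL5ΔDC replicate 2 had 10.2 CPM against 9.55 CPM in replicate 1, and control replicate 3 had 3.57 CPM against 3.51 CPM in replicate 2. FBXL5ΔDC replicate 2 was the lowest of its group for endothelial and for Kupffer cell and macrophage markers. At 6 h against 0 h in FBXL5ΔDC livers 4 of the 7 biliary markers were called higher and 1 lower, and 2 of the 8 hepatocyte markers higher and 1 lower. Of the others called higher there, sinusoidal endothelium had 5 of 6 markers, stellate cells 4 of 7, Kupffer cells and macrophages 2 of 7, and neutrophils 4 of the 6 that could be tested. These counts stand beside 15.0% of all genes called higher and 15.1% lower, and 2 of 7 or 2 of 8 is not far above the share called higher. Among the neutrophil markers, Mmp8 was at 0 in all untreated livers, and Cxcr2 and Retnlg averaged at most 0.029 and 0.077 CPM there. They passed the filter on low counts through the treated livers, so a call of higher for them was largely built in. The neutrophil counts in either genotype are to be read with that limit. In control livers at 6 h against 0 h edgeR called higher 1 of 7 biliary, 2 of 7 Kupffer cell and macrophage and 1 of 6 neutrophil markers, beside 6.36% of all genes. Without control replicate 3 at 6 h these counts were 0, 1 and 1, and 1 stellate marker was called higher. That fit called 965 of 18464 genes higher. With all libraries edgeR called 0 of 6 endothelial and 0 of 7 stellate markers there, and DESeq2 called 1 and 2. Of these, 2 endothelial and 3 stellate markers had an unadjusted p below 0.05, beside 4346 of all 17585 genes.

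Endothelial markers summed to 245 to 286 CPM in FBXL5ΔDC and 118 to 204 CPM in control livers at 6 h, and stellate markers to 206 to 250 CPM in FBXL5ΔDC and 115 to 186 CPM in control livers. Neutrophil markers stayed low, at 3.40 to 10.2 CPM in FBXL5ΔDC and 2.66 to 3.57 CPM in control livers at 6 h, and Ly6g was at 0 in every group other than FBXL5ΔDC at 6 h. Kupffer cell and macrophage markers summed to 138 to 239 CPM in FBXL5ΔDC and 125 to 158 CPM in control livers at 6 h. Basophils and mast cells are known makers of amphiregulin in mice or humans, and their markers Fcer1a and Ms4a2 were at 0 in all groups, while Mcpt8 and Cpa3 were at 0 outside FBXL5ΔDC livers at 6 h. The remaining markers of that list, Gata2 and Kit, were detected in every group. Gata2 averaged 2.92 CPM in FBXL5ΔDC and 1.51 CPM in control livers at 6 h, against 1.11 and 0.407 CPM at 0 h. Kit averaged 2.69 to 4.18 CPM over the groups. T and innate lymphoid cell markers summed to at most 2.83 CPM in any library. The part of these cell types, and of the mitochondrial share, in the results above was not tested.

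The genes whose log2 CPM followed Hbegf most closely over the 12 libraries were Suco, Fst, Snrpa1, Socs3 and Junb (Pearson r of 0.98 for each). Fst encodes the activin inhibitor follistatin, Socs3 a feedback inhibitor of cytokine signalling and Junb an AP-1 subunit. Socs3 averaged 80.4 CPM in FBXL5ΔDC and 18.1 CPM in control livers at 6 h, against 5.39 CPM in FBXL5ΔDC and 6.10 CPM in control livers at 0 h. For Errfi1 they were Pabpc1 (0.95), Mis18a (0.89), Hipk1 (0.88), Phf3 (0.88) and Igsf5 (0.87). For Egfr they were Myo18b (0.90), Dcaf12l1 (0.86), Gm10134 (0.85), P2rx4 (0.85) and Gm10146 (0.84). The libraries share treatment, genotype and depth differences, so these values describe likeness of pattern and carry no test.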

How the data were processed

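Per the submitters' processing notes, HISAT2 2.2.1 aligned reads to mm10 after trimming by Trim Galore 0.6.6, while the program and strand option used for counting are not given in the sources used here. The authors deposited counts per gene, unnormalised and in whole numbers. From 26.5% to 28.5% of low values in a library were multiples of 4, more often than an even spread gives. On that ground the counts were recorded here as estimated counts, which is an inference and not a statement of the authors. The planned count test was still used, although the plan assumed raw counts, because rounding changed nothing. Genes were filtered with filterByExpr and scaled with TMM (factors 0.855 to 1.14). A quasi-likelihood model with 1 coefficient per group was fitted to all 12 libraries in edgeR 4.0.16 under R 4.3.3, with Benjamini-Hochberg adjustment over 17585 genes and a threshold of 0.05. The code was tested on simulated data. CPM used TMM-scaled library sizes, RPKM the exon union of GENCODE vM21, and log2 CPM a prior count of 2. The floor of 12 counts equals 3 fragments if each gave 4 counts, and covers counting error only. No library was a copy of another (lowest chi-square per degree of freedom 23.9). Promoters came from RefSeq. The members and lists were chosen with earlier results of these data known. All 9 members were named, with Fbxl5 and Itgax (0.414 CPM in FBXL5ΔDC and 0.372 CPM in control livers at 6 h), from each list at most 4 genes called at 6 h with the largest change, and the 5 genes most correlated with Hbegf, Errfi1 and Egfr. Alternatives were RLE and upper quartile scaling, no filter, DESeq2 1.42.0, a replicate block, 2 groups only, each library left out, and counts divided by 4, the last chosen after seeing the data.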

Additional observations from a re-analysis of the deposited data

How the results depend on the processing

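For 6 h against 0 h in FBXL5ΔDC livers the 5 calls among the 9 genes became 5 to 6 when each library was left out, and the 5 calls, of Hbegf, Areg, Ereg, Btc and Erbb3, held in all 19 alternatives. In control livers the 3 calls were 3 to 4 with a library left out and 5 in DESeq2, while with 2 groups only the Erbb3 call was lost (edgeR adjusted p = 0.0695). Between genotypes at 6 h the 2 calls became 0 without a filter, 1 with the replicate block, 0 with 2 groups only and 0 to 4 with a library left out. The interaction had 2 calls in DESeq2 and 0 to 2 with a library left out. Over the single-gene values, 746 of 809 kept direction and call. With all libraries, sign changes were for Tgfa in control livers (-0.0091 with upper quartile scaling) and for Btc between genotypes at 6 h (0.0107 with RLE scaling, 0.0104 in DESeq2, 0.0076 with counts divided by 4, 0.045 with upper quartile scaling, 0.13 with the block). With a library left out, log2 changes at 6 h against 0 h ran from -0.25 to 0.14 for Egfr and from -0.052 to 1.11 for Erbb2 in FBXL5ΔDC livers, and from -0.34 to 0.23 for Tgfa, from -0.14 to 0.64 for Erbb2 and from -0.18 to 0.30 for Errfi1 in control livers. Between genotypes at 6 h they ran from -0.29 to 0.67 for Btc, from -0.029 to 0.45 for Errfi1 and from -1.49 to 0.75 for Areg, and for the interaction from -0.23 to 0.25 for Errfi1, from -0.54 to 0.42 for Btc and from -0.35 to 0.82 for Erbb2. None of these was called in the fit to all libraries. Calls over all genes in DESeq2 were 1680 higher and 1182 lower in control livers at 6 h, 730 and 1390 between genotypes at 6 h, and 213 and 473 for the interaction, against 1118 and 739, 238 and 793, and 6 and 45 in edgeR. With 2 groups only they were 235 and 167 in control livers and 0 and 6 between genotypes, and with upper quartile scaling 911 and 938 in control livers. The interaction had 2 and 18 calls with upper quartile scaling, 4 and 24 with the block, and 4 and 28 with counts divided by 4. Leaving out a library gave 763 to 2170 calls in control livers, 250 to 4249 between genotypes and 1 to 2533 for the interaction, and both upper ends came without control replicate 3 at 6 h. The causes were not tested. Replicate numbers did not pair the samples (correlations of -0.061 to 0.044 over 18 pairs), so the block is given here alone, and it lost the Hbegf call between genotypes (log2 change 4.23, adjusted p = 0.0654). With 3 libraries a group, low transcripts such as Erbb2 and Ereg have wide intervals.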
